A study of Mus musculus with 11 samples.

Results

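The cytosolic ribosomal protein genes are the 83 protein-coding genes of the expression table whose symbol is Rpl or Rps with a number, with Rplp0, Rplp1, Rplp2 and Rpsa added and with the Rps6k kinases and the pseudogenes left out. They made up 83 of 19329 gene IDs, 49 of the large subunit (Rpl) and 34 of the small subunit (Rps). By the letter of this rule the set also holds Rps19bp1, which encodes a binding partner of Rps19 and no subunit, and the paralog Rpl7l1. Ribosomal proteins coat and shape the ribosomal RNA of both subunits, and a cell needs them in matched amounts, so that their messenger RNAs are among the most abundant of most tissues. Many of these messages begin with a run of C and T bases, the terminal oligopyrimidine tract, through which the mTOR kinase and the RNA-binding protein Larp1 adjust their translation to nutrients. In the pancreatic islet, where beta cells make large amounts of proinsulin, ribosomes and the secretory pathway carry a heavy load of protein synthesis.

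RNA was sequenced from whole pancreatic islets of untreated, chow-fed male mice aged 14 weeks. The study's methods describe culture of the isolated islets in RPMI medium with serum, for a time that is not given per library. There were 6 wild-type libraries and 5 libraries of homozygous PDX1 P33T/P33T mice, called PDX1P33T here. Their Pdx1 gene carries a proline-to-threonine point mutation made by CRISPR-Cas9 editing in every cell of an inbred C57BL/6N line. The study calls the wild-type mice littermates but also describes cohort breeding by homozygous intercrosses, so shared litters cannot be assumed. The mutation exchanges 1 amino acid, so the Pdx1 level is no check of the labels, and the study describes each biological replicate as collected from several mice, so that a library may be a pool. PDX1P33T replicates 1 to 5 carry the library numbers 1, 2, 4, 5 and 6, and replicate 2 is the one that stood apart. Values are FPKM, the fragments of a gene scaled by its length and by the size of the library. The PDX1P33T columns held 22849700 to 34866800 counted reads, recovered from the steps of the low values. The wild-type columns sit on the wrong rows for most genes, and 32 members could be given their wild-type row. Beta cell markers were present at high level in the PDX1P33T libraries and acinar markers at low level. The 8 beta cell markers summed to 236576 to 334492 FPKM and the 7 measured acinar markers to 3.96 to 76.9 FPKM.

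The pyrimidine run that the family is known for can be seen in the sequence around the start of transcription. RefSeq promoters of assembly GRCm38.p6, which is not the build of the expression table, were matched to 63 of the 83 members. The windows that follow run from 15 bases before the annotated start to 15 bases from it, 5′ to 3′, for members with a matched promoter among the highest and the lowest in PDX1P33T replicate 2, followed by Rps6 and Rplp2 as members of known role. Capitals mark the longest run of C and T where it had at least 8 bases. They lie at chr3:28805493-28805522 on the plus strand, chr16:33056467-33056496 on the plus strand, chr9:66946071-66946100 on the plus strand, chr7:4792950-4792979 on the plus strand, chr15:80264292-80264321 on the minus strand, chr4:86857353-86857382 on the minus strand and chr7:141447636-141447665 on the plus strand. Rpl35a has 3 annotated starts and Rps27l 2, and the start with the longest run is shown.
Rpl22l1: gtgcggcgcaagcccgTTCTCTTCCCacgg
Rpl35a: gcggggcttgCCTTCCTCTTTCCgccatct
Rps27l: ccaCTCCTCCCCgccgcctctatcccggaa
Rpl28: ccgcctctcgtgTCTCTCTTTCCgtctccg
Rps19bp1: cagggcggaagtagctcgccgcgtgtgggc
Rps6: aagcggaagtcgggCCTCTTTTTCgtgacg
Rplp2: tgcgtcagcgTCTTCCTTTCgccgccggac
The runs of Rpl35a, Rpl28, Rps6 and Rplp2 spanned the annotated start, that of Rpl22l1 lay wholly after it and that of Rps27l wholly before it, while Rps19bp1, which is no subunit, had a longest run of 3 bases. A run of at least 8 on the transcribed sense was present in 28 of 74 member promoters (37.8%), against 12.0% of 32851 promoters of all genes. On the opposite strand the shares were 4.05% and 13.2%. Over the full 300 bases of each promoter, either strand, CCGGAA, the core recognised by ETS factors, was present in 48.6% of the member promoters and 14.9% of all. GGGCGG, the GC box, was present in 62.2% and 35.7%, and TATAAA in 9.46% and 13.6%. Having such a run did not separate the members in PDX1P33T replicate 2, where levels were high. Measured as the log2 difference from a gene's own mean over the PDX1P33T libraries, the 27 genes with one had a median deviation of 0.47 and the 36 genes without one 0.52. The count took any run of at least 8 within 15 bases of an annotated start. Genes without one may still carry a shorter tract or one at another start, so the part of the tract itself was not tested. Rpl22l1 and Rpl28, at opposite ends of the order in that library, both carried a run.

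The members were abundant in islets. Their mean FPKM over the PDX1P33T libraries ran from 0.138 to 1326 with a median of 191, against a median of 3.00 over 14186 protein-coding genes measured in all 5 libraries. 65 of 83 members reached 100 FPKM, a level that 2.12% of those genes reached. Together the members took 3.61%, 4.50%, 3.35%, 3.75% and 3.24% of the counted reads of PDX1P33T replicates 1 to 5. The 95% Wilson interval of the highest share, that of replicate 2, was 4.49% to 4.51%. That of the lowest share was 3.24% to 3.25%, and such intervals cover counting error only.

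**Figure D1:**
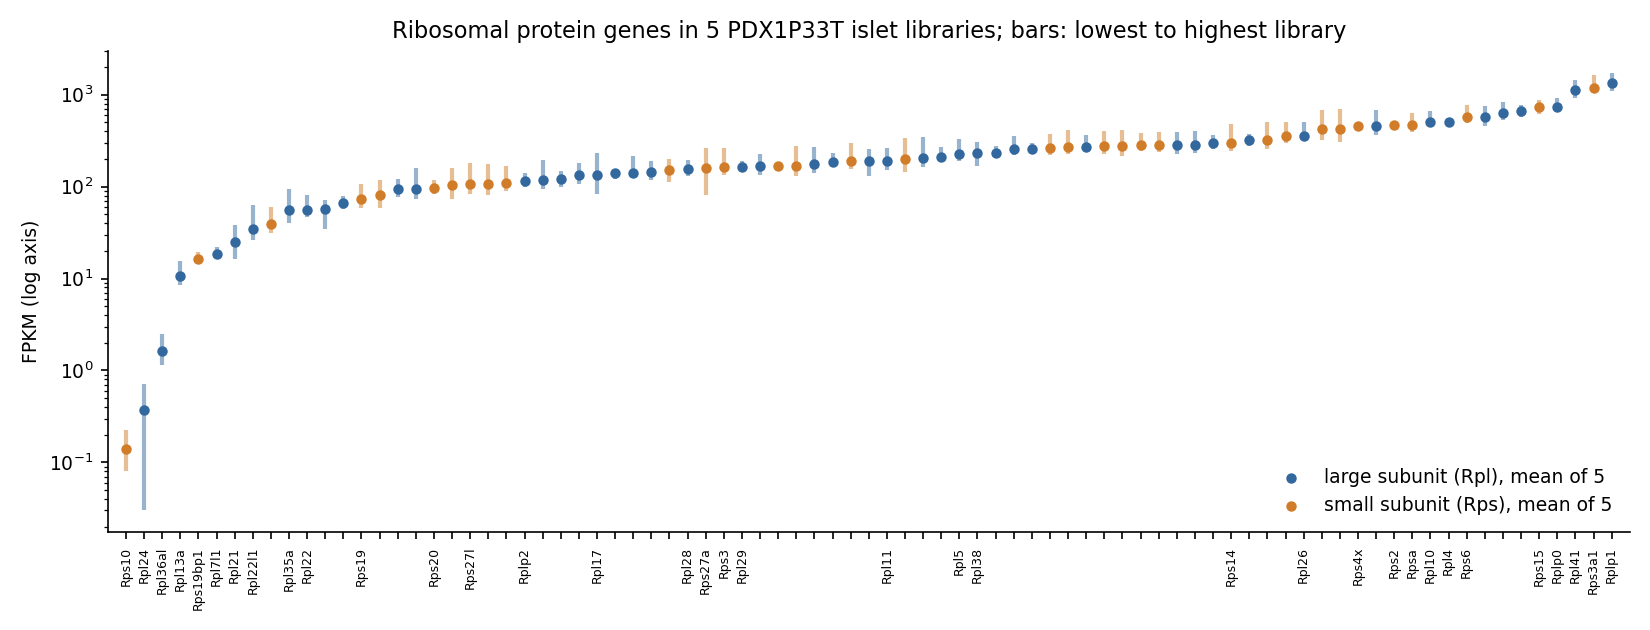
Mean FPKM of the 83 members over the 5 PDX1P33T libraries on a log axis, ordered from lowest to highest and labelled for selected members, with bars from the lowest to the highest library, large subunit genes in blue and small subunit genes in orange. Most members lie between 42.4 FPKM (10th percentile) and 558 FPKM (90th percentile), and Rps10, Rpl24 and Rpl36al lie far below.

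Among the proteins of the stalk, the flexible arm of the large subunit that recruits the translation factors, Rplp1 had the highest mean of all members. It had 1367, 1739, 1134, 1287 and 1105 FPKM in PDX1P33T replicates 1 to 5. Rplp0, the base of the stalk, had 759, 911, 650.0, 737 and 664 FPKM. Rplp2, the partner of Rplp1, had 126, 139, 102, 117 and 99.3 FPKM. In all 3 genes replicate 2 was the highest and replicate 3 or 5 the lowest. The means of Rplp1 and Rplp2 differed by 11.4-fold although both proteins sit in the stalk as pairs. The ratio depends on the length by which the reads were divided, which was 499 bases for Rplp1 and 2072 for Rplp2, while the median protein-coding transcript has 499 and 449 bases. Per transcript length the ratio was 2.47.

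Long recovered lengths were common in the family. The length behind the FPKM, recovered from the values themselves, was 2.47 times the median protein-coding transcript length at the median member and up to 11.9 times, for Rps24, and it was over 2 times for 52 of 83 members. FPKM ranked Rplp1, Rps3a1, Rpl41, Rplp0 and Rps15 highest, with 1326, 1181, 1121, 744 and 734 FPKM. Per transcript length 3 of these 5 stayed among the 5 highest, led by Rpl41, which encodes a peptide that is among the smallest of the ribosome. The neighbours Rplp1 (1105 to 1739 FPKM over libraries), Rps3a1 (1038 to 1625) and Rpl41 (918 to 1453) overlapped, as did Rplp0 (650.0 to 911) and Rps15 (622 to 872). Comparisons of 1 gene between libraries do not involve this length.

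At the other end, Rps10, Rpl24, Rpl36al, Rpl13a and Rps19bp1 had the lowest means, and these 5 were the lowest on either length. Rps10 had 0.225, 0.128, 0.0805, 0.141 and 0.117 FPKM, from 6 to 14 reads. Rpl24 had 0.469, 0.286, 0.0301, 0.71 and 0.342 FPKM, from 1 to 18 reads. Both encode proteins of the ribosome, Rps10 at the head of the small subunit and Rpl24 at the face between the subunits, and in both the libraries differed by a few reads. Rpl13a, which besides its place in the ribosome takes part in the translational silencing of inflammatory messages, had 9.92, 15.6, 9.34, 10.4 and 8.57 FPKM. In the GENCODE vM21 annotation, Rpl24, Rpl13a, Rpl36al and Rps10 had 47.0%, 35.4%, 24.5% and 20.6% of their exon bases under exons of another gene on the same strand (Gm28037, Gm45713, Gm49383 and RPS10-NUDT3 in that order). No other member was above 14.5%. Sequence was also shared between loci: 77 of 83 members had at least one stretch of 100 bases in common with a transcript of another gene, and for 17 members more than 50% of the stretches were shared. Rpl24 shared 80.1% of its stretches, Rps6 83.6%, Rpl7a 73.5% and Rps27rt 89.5%, and among those that shared none were Rps3, Rps21, Rps27l, Rpl22 and Rps19bp1. How the authors' counting treated reads of overlapping or repeated sequence was not tested, and the levels of members with shared sequence are uncertain to that extent.

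Large subunit members of known role had their highest level in replicate 2. Rpl5 and Rpl11, which travel to the ribosome with its smallest RNA and can bind the p53 regulator Mdm2, had 211, 330.3, 195, 212 and 192 FPKM and 196, 264, 154, 187 and 155 FPKM. Rpl10, one of the last proteins to join the large subunit, had 481, 661, 450.0, 489 and 460.0 FPKM. Rpl26, known to bind the p53 message, had 326, 505, 313, 329.9 and 316 FPKM. Replicate 2 was the highest for each of these 4 genes, and the other libraries lay close together except for Rpl11, which was higher in replicates 1 and 4 than in 3 and 5. Rpl38, known for its part in the translation of Hox messages, had 278, 304, 169, 223 and 178 FPKM. Rpl22, an RNA-binding subunit dispensable for translation in general, had 55.0, 81.0, 47.3, 49.5 and 46.8 FPKM. For Rpl38 replicate 1 was almost as high as replicate 2, whereas for Rpl22 replicate 2 stood alone. Rpl41 had 1169, 1453, 918, 1133 and 935 FPKM, with replicate 2 again the highest.

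In the small subunit, Rps6, the target of S6 kinase, had 549, 769.8, 497, 544 and 487 FPKM. Rpsa, the laminin receptor precursor, had 474, 639, 394, 457 and 389 FPKM. Rps3, which lies at the entry of the message and has a second role in DNA repair, had 141, 263, 134, 136 and 134 FPKM. In all 3 replicate 2 was the highest, and for Rps3 the other 4 libraries lay within 134 to 141 FPKM. Rps14, whose loss causes anemia in humans, had 266, 479, 247, 246 and 249 FPKM. Rps19, likewise an anemia gene, had 76.3, 107, 58.1, 66.8 and 58.9 FPKM. Replicate 2 stood far above the rest for Rps14 and less so for Rps19. Rps20, a protein of the small subunit head, had 95.7, 118, 83.0, 98.5 and 84.5 FPKM. Rps27a, which is made as a fusion with ubiquitin, had 183, 262, 134, 134 and 81.2 FPKM and was the only one of these genes in which the 4 other libraries spread more than 2-fold. Rps4x, the X-linked subunit, differed from the rest: it had 472, 457, 427, 485 and 425 FPKM, so that replicate 2 lay inside the range of the other libraries.

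For several members the mouse genome encodes a paralog, and the members of a pair differed in how far replicate 2 stood out. Rpl22l1, which can replace Rpl22 in the ribosome, had 26.5, 63.0, 28.7, 26.3 and 29.1 FPKM and stood 2.28-fold as high in replicate 2 as the mean of the other 4 libraries, against 1.63-fold for Rpl22. Rps27l, a p53-responsive paralog, had 91.2, 182, 86.8, 84.2 and 86.3 FPKM, 2.09-fold in replicate 2, against 1.69-fold for Rps27 with 288, 415, 241, 237 and 214 FPKM. Rps27rt, a retrotransposed copy of Rps27, had 149, 337, 144, 198 and 178 FPKM, and 89.5% of its 100-base stretches occur in another gene. Rpl7l1 had 17.3, 22.1, 17.9, 18.2 and 17.5 FPKM, 1.25-fold in replicate 2, beside Rpl7 with 245, 365, 241, 262 and 239 FPKM and 1.48-fold. Rpl36a had 78.6, 76.5, 57.5, 65.1 and 56.5 FPKM. Its intronless paralog Rpl36al had 1.15, 2.49, 1.47, 1.65 and 1.38 FPKM, from 42 to 80 reads. Rpl3 and Rpl39, whose paralogs were not analysed here, had 257 ± 58.1 (SD, n = 5) and 132 ± 30.6 (SD, n = 5) FPKM. These ratios describe a single library and have no test.

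Between the PDX1P33T libraries the members did not keep one level. Each member's log2(FPKM + 0.1) was set against its own mean over the 5 libraries, and the medians of these deviations over all members were 0.0096, 0.48, -0.20, -0.043 and -0.22 in replicates 1 to 5. Over the protein-coding genes as a whole they lay between -0.025 and 0.0088. Replicate 2 was the highest of the 5 libraries for 71 of 83 members, where 34.3% of all protein-coding genes had their highest value in that library. Among 594 other protein-coding genes with a mean of at least 50 FPKM the share was 57.6%, and it was higher still in some groups of other genes given below. Of the others, 9 were highest in replicate 1 (all genes 20.5%), 3 in replicate 4 (20.1%) and none in replicates 3 and 5 (12.2% and 12.9%). Replicate 2 was the lowest for 2 members, against 38% of all genes. The lowest value fell in replicate 5 for 45 members (all genes 13.3%), in replicate 3 for 26 (11.9%), in replicate 1 for 5 (19.4%) and in replicate 4 for 5 (17.4%). In 37 members replicate 2 stood apart from the other 4 by Dixon's criterion, which holds for 9.43% of all protein-coding genes. The summed FPKM of the members were 22099, 29598, 18842, 21229 and 18584 in replicates 1 to 5, so that replicate 2 had 1.47 times the mean of the others. A single library has no replicate, and none of these differences carries a test.

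**Figure D2:**
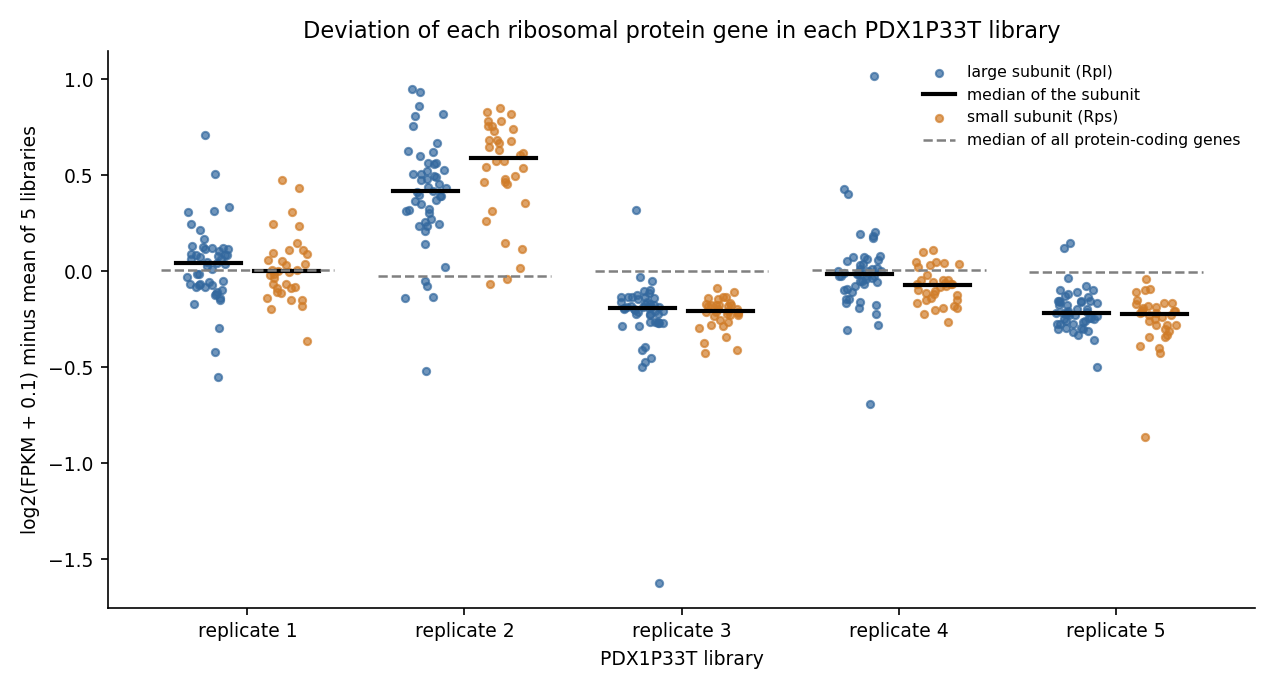
Log2 deviation of each member from its mean over the 5 PDX1P33T libraries, by library, with large subunit genes in blue and small subunit genes in orange, black bars for the median of each subunit and dashed lines for the median of all protein-coding genes. In replicate 2 the medians are 0.42 for the large and 0.59 for the small subunit, and the points spread from -0.52 to 0.95.

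The size of the shift depended on the scaling of the libraries and its direction did not. Replicate 2 also had the largest sum of FPKM over all genes, 607661 against 470113 to 535144 in the other 4. Divided by that sum, the members' median deviation in replicate 2 was 0.24, but that scaling moved the median of all protein-coding genes to -0.25. Relative to all genes the members stood 0.49 higher there and 0.51 higher on the deposited scale. The members' coefficient of variation (SD over mean) had a median of 24.5% with all 5 libraries and 10.1% without replicate 2. Over all protein-coding genes the median was 15.3% with all 5 libraries and 9.71% without replicate 2, and leaving out the library in which most members are highest lowers their value by construction.

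The members were not shifted alike. In replicate 2, 76 members lay above and 7 below their own mean, 43 reached at least 1.5 times the mean of the other 4 libraries and 7 at least 2 times. These counts have no share over all protein-coding genes beside them, so they describe the members only. The highest deviations were those of Rpl22l1 (0.95), Rpl17 (0.93), Rpl35a (0.86), Rps27l (0.85) and Rps27a (0.83). Rpl17, which lies near the peptide exit, had 83.5, 234, 89.3, 164 and 95.5 FPKM, high in replicate 2 and in replicate 4. Rpl35a, another anemia gene, had 53.8, 95.0, 39.7, 43.1 and 44.5 FPKM, with only replicate 2 high. Among the lowest deviations were those of Rpl21 (-0.52), Rpl28 (-0.14), Rpl29 (-0.075) and Rps19bp1 (-0.065). Rpl28 had 193, 139, 131, 174 and 137 FPKM. Rpl29 had 191, 156, 145, 185 and 149.7 FPKM. In both of these large subunit genes replicates 1 and 4 were the high libraries and replicate 2 lay with replicates 3 and 5. Rpl21, which shares sequence with 40 other genes, had 38.4, 16.3, 16.5, 30.9 and 21.9 FPKM and was lowest in replicates 2 and 3.

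The 7 members that reached at least 2 times the mean of the other libraries were Rpl9, Rpl17, Rpl22l1, Rpl34, Rpl35a, Rps27l and Rps27rt. Rpl9, of the large subunit near the stalk, had 178, 345, 168, 174 and 163 FPKM. Rpl34, a large subunit protein of eukaryotes and archaea, had 81.1, 159, 76.7, 81.4 and 73.1 FPKM. In both genes the other 4 libraries lay close together and replicate 2 stood alone. The 12 members that were not highest in replicate 2 included Rpl4, Rpl21, Rpl24, Rpl28, Rpl29, Rpl36a, Rps2, Rps4x, Rps10, Rps19bp1 and Rps29. Rps29, a small zinc-binding protein of the head, had 199, 188, 116, 141 and 112 FPKM, with the highest value in replicate 1 and replicate 2 between it and the rest. Members not described singly lay between these ends. Among those of the large subunit, replicate 2 had 1.22 times the mean of the other libraries for Rpl8, a protein at the peptidyl transferase centre, 1.44 times for Rpl19, 1.68 times for Rpl32 and 1.92 times for Rpl12 at the base of the stalk. Among those of the small subunit it had 1.80 times for Rps18, 1.88 times for Rps23 at the decoding centre and 1.97 times for Rps12. In all of these replicate 2 was the highest library.

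The members also differed in their spread. The largest coefficients of variation over the PDX1P33T libraries were those of Rpl24 (67.8%), Rpl17 (48.8%), Rpl22l1 (45.7%), Rps27a (42.8%) and Rpl35a (41.4%), where that of Rpl24 rests on very few reads. The smallest were those of Rps4x (5.96%), Rpl4 (6.94%), Rps26 (7.15%), Rps2 (9.69%) and Rpl23 (10.4%). Rpl4, which lines the exit tunnel, had 548, 518, 474, 539.7 and 474 FPKM. Rps2, at the entry of the message, had 518, 508, 423, 479 and 422 FPKM. Rps26, an anemia gene like Rps19, had 169, 187, 154, 171 and 164 FPKM. In the 5 genes of smallest spread replicate 2 lay 0.015 to 0.15 above the mean of the 5 libraries on the log2 scale. The small subunit was shifted more than the large one: the summed FPKM of the large over the small subunit members was 1.27 in replicate 2 and 1.38 to 1.45 in the other 4 libraries.

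GC content and transcript length moved with the shift. Over 14176 protein-coding genes the deviation in replicate 2 had a Spearman correlation of -0.44 with the GC content of the transcript, and those in replicates 1 and 4 of 0.48 and 0.42. Over the 83 members the same correlations were -0.38, 0.40 and 0.31. With transcript length the deviation in replicate 2 had correlations of -0.25 over those genes and -0.23 over the members. In replicates 3 and 5 they were 0.27 and 0.26 over those genes, and 0.27 and 0.36 over the members. The correlations are descriptions across genes of the same libraries, and genes are not independent replicates. The members had a median GC content of 51.6% and length of 711.5 bases, against 51.0% and 2214 bases over the protein-coding genes measured in all 5 libraries. The 28 members with the lowest GC content had a median deviation in replicate 2 of 0.57, the 27 in the middle 0.54 and the 28 with the highest 0.40. With the median of protein-coding genes of like GC content and transcript length taken off, the members' median deviation in replicate 2 was 0.43 and 67 members were still highest there. The part of GC content or of length in the shift of single members was not tested.

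**Figure D3:**
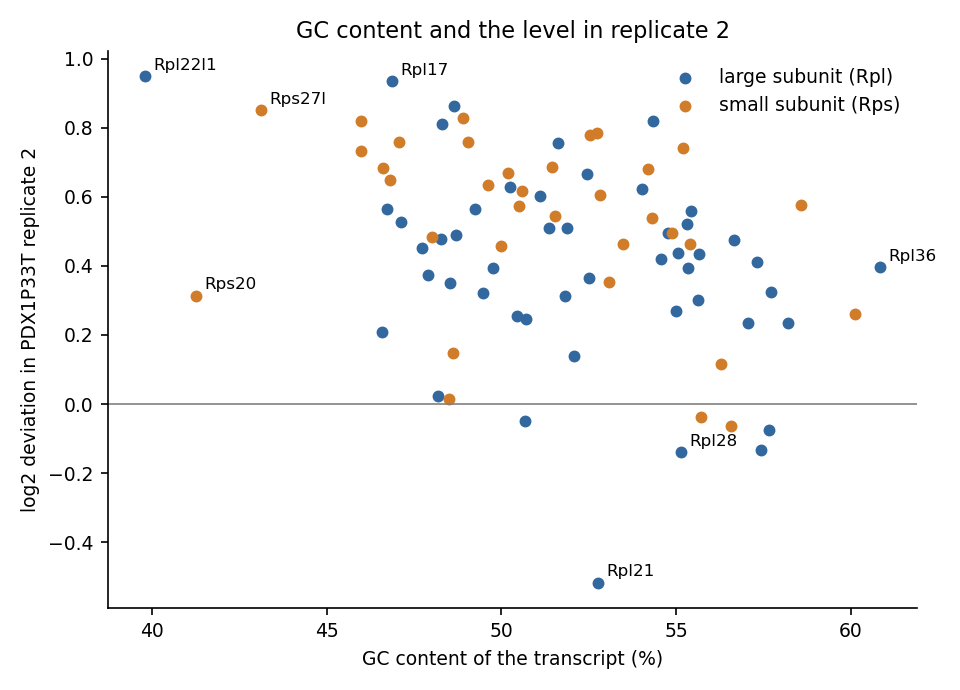
Log2 deviation of each member in PDX1P33T replicate 2 against the GC content of its transcript in percent, large subunit genes in blue and small subunit genes in orange. Rpl22l1 and Rps27l, at 39.8% and 43.1% GC, lie at the top and Rpl28, at 55.1%, lies below 0, while Rps20 with 41.3% has a deviation of 0.31.

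The other genes of the translation pathway, taken from lists chosen with earlier results of these data known, differed in how they stood in replicate 2. Beside each count of genes highest or lowest there stand the 34.3% and 38% of all protein-coding genes that are. Subunit genes outside the naming rule were also measured. Fau, which encodes Rps30, had 423, 562, 330.2, 378 and 328 FPKM. Rack1, the scaffold on the small subunit, had 131, 195, 123, 133 and 121 FPKM. Both were highest in replicate 2, like most members. Of 20 further genes with terminal oligopyrimidine messages 12 were highest there and 5 lowest, with a median deviation of 0.25. Eef1a1, which delivers transfer RNA to the ribosome, had 2336, 3617, 2519, 2476 and 2474 FPKM, highest in replicate 2. Eef2, which moves the ribosome along, had 732, 515, 632, 719 and 619 FPKM with its lowest value in replicate 2. The 8 genes of elongation, which include the kinase gene Eef2k, had a median deviation of 0.067. The 48 genes of ribosome biogenesis, which make and assemble the ribosomal RNA, had a median deviation of 0.017, and 18 of 48 were highest and 17 lowest in replicate 2, shares close to those of all genes. Among them Polr1a, the largest subunit of RNA polymerase I, had 2.20, 1.27, 2.23, 2.26 and 1.88 FPKM, lowest in replicate 2. Polr1c, a subunit shared with RNA polymerase III, had 14.4, 18.3, 13.5, 12.7 and 12.4 FPKM, highest there. A list of 16 genes held mTOR signalling and its translational regulators and also Trp53, Mdm2, Myc, Mycn and Zbtb20. It had a median deviation of -0.29, and 4 of its genes were highest and 10 lowest there. Mtor had 3.32, 2.74, 3.50, 3.82 and 3.27 FPKM, lowest in replicate 2. Larp1 had 10.1 FPKM in replicate 2 and at most 16.6 in the other libraries.

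Other groups of genes were set beside the members. The median deviation in replicate 2 was 0.33 over 77 mitochondrial ribosomal proteins, 0.48 over 86 nuclear-encoded respiratory chain subunits and 0.38 over 39 proteasome subunits, against 0.48 over the members. Over 228 other genes with a mean of at least 50 FPKM and a transcript under 1000 bases it was 0.27. The shares of genes highest in replicate 2 were 81.8%, 89.5%, 84.6% and 66.7% in these groups, in that order, against 85.5% of the members. Their median FPKM were 10.6, 40.5, 27.8 and 87.7 in the same order, against 191 for the members. The median transcript lengths were 1056, 681.5, 1291 and 725.5 bases, against 711.5, so not every group matched the members in level and length. All of these groups stood high in replicate 2, and no difference between them and the members was tested. Replicate 2 also had the most acinar RNA: the 7 measured acinar markers of 8 summed to 11.2, 76.9, 3.96, 11.7 and 4.76 FPKM in replicates 1 to 5, all 7 highest in replicate 2 and none at 0. The 4 endothelial markers summed to 118, 53.1, 90.1, 123 and 89.3 FPKM, lowest in replicate 2, and the 5 stromal markers to 8.49, 3.72, 5.20, 7.78 and 5.22 FPKM. In whole islets fewer cells of a type and less RNA per cell cannot be told apart, and the part of these cells in the members' levels was not tested.

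The comparison of genotypes asks whether islets of PDX1P33T mice differ from wild-type islets in these messages. It could be made for 32 of the 83 members. Wild-type values were used only where the row that holds a gene's wild-type values was identified. This was done by recovered gene length and level for 30 members. For the other 2, Rpl21 and Rps27l, it was done by read counts that the study lists, of which only a first stretch was at hand. A further 15 could be placed under a looser limit and 36 could not. Since the level was part of the match, a member that differed more than 4-fold between genotypes could not have been placed by length. No member was called at an adjusted p of at most 0.05 (limma on log2(FPKM + 0.1), Benjamini-Hochberg over 19329 gene IDs) and a fold change of at least 1.5, where 0.0847% of 4725 tested genes were. The members called were 0 higher and 0 lower, where 0.0423% of all tested genes were called higher and 0.0423% lower. The smallest adjusted p of a member was 0.499 by limma. At an unadjusted p under 0.05, 1 member was higher and 1 lower in PDX1P33T, where 15.7% and 18.3% of all tested genes were. These shares hinge on how the row was found. Among the 1673 tested genes found by listed reads, 87.1% had an unadjusted p under 0.05, against 4.88% of the 3052 found by length. Both members under 0.05 were found by listed reads, so they entered the comparison through a stretch of the list rich in genes that differ, and of the 30 members found by length none was under 0.05.

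The estimates were small beside their errors. The median log2 fold change was 0.087 over the 32 members and -0.059 over all tested genes, with 18 members above 0 and 14 below. The sign of the members' median was not stable: it was -0.053 without PDX1P33T replicate 2, with 9 members above 0 and 23 below. With each library divided by its sum over all rows it was -0.065, with 10 above and 22 below, where the median of all tested genes was -0.21. Small subunit members had a median of 0.12 and large subunit members of -0.069. In 27 of 32 members the estimate was under 0.35 in size. For example, Rps6 had 434, 565, 677, 491, 472 and 518 FPKM in wild-type replicates 1 to 6 and a log2 fold change of 0.11 ± 0.15 (SE), and Rplp0 had 591, 937, 1109, 677, 703 and 818 FPKM and -0.093 ± 0.17 (SE). The PDX1P33T values of Rplp0 lay inside the wild-type range, and only replicate 2 exceeded it for Rps6.

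**Figure D4:**
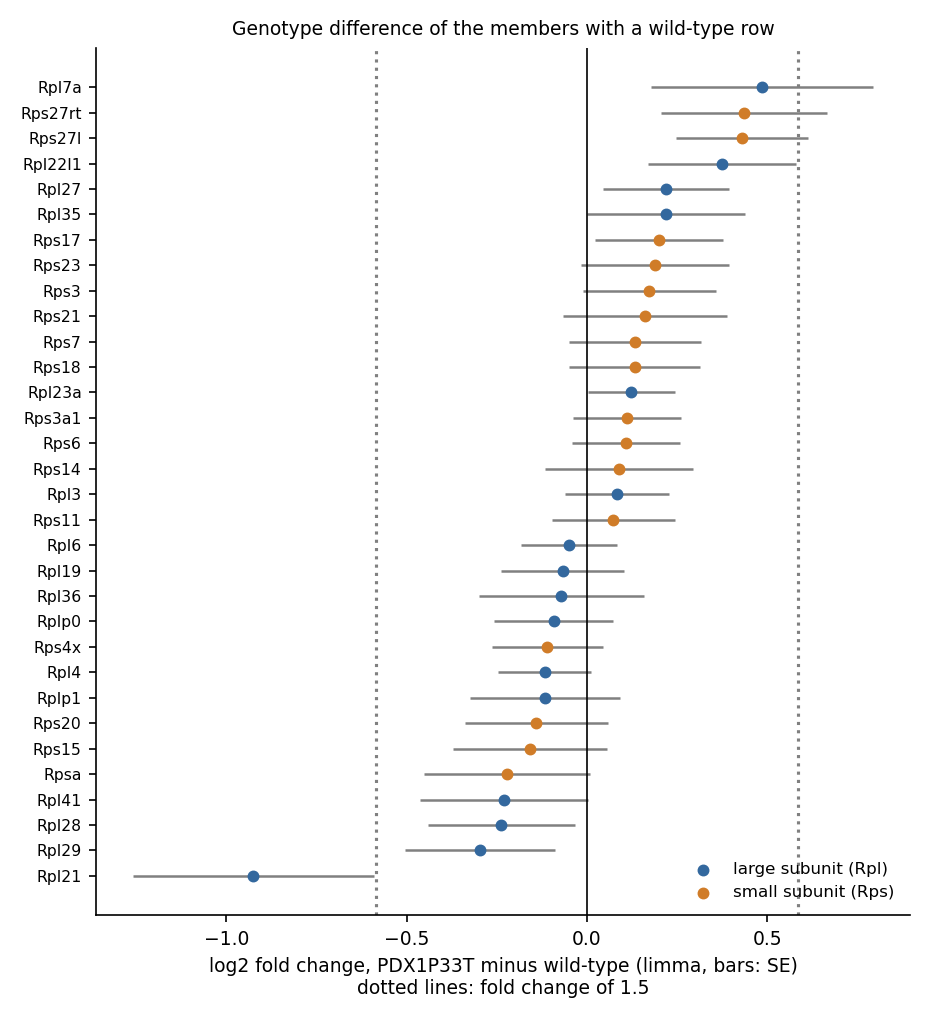
Log2 fold change of PDX1P33T against wild-type for the 32 members with an identified wild-type row, with the standard error of limma as a bar and dotted lines at a fold change of 1.5, large subunit genes in blue and small subunit genes in orange. All estimates but that of Rpl21 (-0.93) lie between the dotted lines.

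The largest differences were those of Rpl21, Rpl7a and Rps27rt, and among the 32 members Rps27l was the only one whose groups did not overlap. Rpl21 had 34.2, 55.5, 96.9, 43.5, 22.9 and 42.4 FPKM in the wild-type libraries and 38.4, 16.3, 16.5, 30.9 and 21.9 in the PDX1P33T libraries, a log2 fold change of -0.93 ± 0.33 (SE). Its groups overlapped, and the raw p of an exact two-sided permutation test was 0.0346 and the limma adjusted p 0.499. Wild-type replicate 3 had the highest value of all libraries, and without it the log2 fold change was -0.70. Rpl7a had 23.5, 62.7, 24.1, 32.2, 55.3 and 64.1 FPKM in the wild-type libraries and a log2 fold change of 0.49 ± 0.31 (SE), with an exact permutation p of 0.173 and an adjusted p of 1.00. Rps27rt had 129, 174, 208, 121, 106 and 132 FPKM and 0.44 ± 0.23 (SE), with an exact permutation p of 0.130 and an adjusted p of 0.764. All 3 spread widely within both groups.

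Rps27l had 73.7, 69.8, 74.0, 82.6, 68.2 and 82.2 FPKM in the wild-type libraries and 91.2, 182, 86.8, 84.2 and 86.3 FPKM in the PDX1P33T libraries. Every PDX1P33T library lay above every wild-type library, by little except in replicate 2, and 4.85% of all tested genes had groups that did not overlap, 0.524% of those found by length and 12.7% of those found by listed reads, as Rps27l was. The log2 fold change was 0.43 ± 0.18 (SE), with a raw exact two-sided permutation p of 0.0043, the smallest that 462 splits can give, and a limma adjusted p of 0.533. Without PDX1P33T replicate 2 the log2 fold change was 0.22. Rpl22l1 had 26.2, 29.7, 27.4, 22.7, 22.6 and 22.9 FPKM in the wild-type libraries, and its log2 fold change of 0.37 ± 0.20 (SE) went to 0.14 without PDX1P33T replicate 2 (adjusted p = 0.805 with all libraries). Rpl29 stood at the lower end, with 129.8, 241, 350.1, 180.3, 176 and 195 FPKM in the wild-type libraries and a log2 fold change of -0.30 ± 0.21 (SE), which was -0.14 without wild-type replicate 3.

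The members spread widely within both groups. Relative to the wild-type mean, the median over the 32 members was -0.29, 0.25, 0.49, -0.17, -0.20 and -0.058 in wild-type replicates 1 to 6. In PDX1P33T replicates 1 to 5 it was 0.011, 0.58, -0.14, -0.036 and -0.15. Wild-type replicate 3 and PDX1P33T replicate 2 were the high libraries and wild-type replicate 1 the low one. Over 4396 protein-coding genes with a wild-type row the medians lay between -0.0095 and 0.0012 in wild-type and between -0.13 and -0.014 in PDX1P33T. Wild-type replicate 3 had the highest of the wild-type values for 28 of 32 members and wild-type replicate 1 the lowest for 23. The same shares over all placed genes were not counted, so these counts describe the members only. The median coefficient of variation of these members was 24.1% in wild-type and 22.1% in PDX1P33T. Their summed FPKM were 9809, 15043, 18986, 11214, 10890 and 12225 in the wild-type libraries and 12615, 16874, 10834, 12176 and 10735 in the PDX1P33T libraries, and all PDX1P33T sums lay inside the wild-type range.

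**Figure D5:**
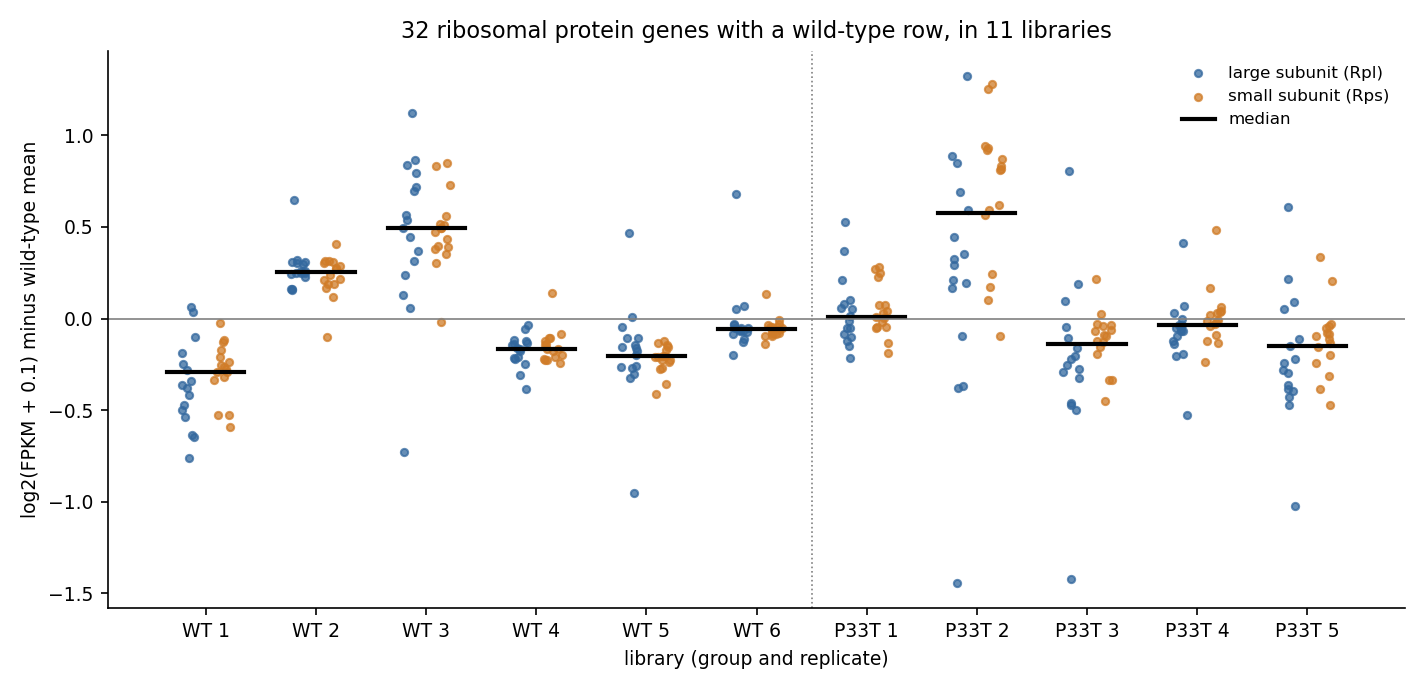
Log2(FPKM + 0.1) of the 32 members with an identified wild-type row, relative to each member's wild-type mean, in the 6 wild-type and 5 PDX1P33T libraries, with black bars for the median of a library. The medians reach 0.49 in wild-type replicate 3 and 0.58 in PDX1P33T replicate 2 and are lowest, at -0.29, in wild-type replicate 1.

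The members differed in which of these high libraries was the higher one. Wild-type replicate 3 was the highest wild-type library in 28 of the 32 members and PDX1P33T replicate 2 the highest of its group in 27. Both held in 23, and with such counts most members had to have both. Of the 32 members, 18 had their highest value of all 11 libraries in PDX1P33T replicate 2 and 14 in wild-type replicate 3, counts that again have no share over all placed genes beside them. Rps27l, Rpl22l1, Rps14 and Rps7 were among those highest in PDX1P33T replicate 2. Rps7 had 416 FPKM there and 310.4 in wild-type replicate 3. Rpl28, Rpl29, Rpl41 and Rpsa were among those highest in wild-type replicate 3. Rpl28 had 298 FPKM there, against 139 in PDX1P33T replicate 2. The relation to GC content also differed in direction between libraries: over the 32 members the Spearman correlation of the relative level with GC content was 0.58 in wild-type replicate 3, -0.67 in wild-type replicate 1 and -0.42 in PDX1P33T replicate 2. It was negative in all 5 PDX1P33T libraries, from -0.62 to -0.24, and over 4396 tested genes from -0.54 to -0.23. All were measured from the same wild-type mean, so they are not separate observations. Measured from the mean of their own group over the 83 members, PDX1P33T replicates 1 and 4 had positive correlations, 0.40 and 0.31. The part of GC content in the genotype estimates was not tested.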

How the data were processed

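RNA-seq of whole islets was analysed in 6 wild-type and 5 PDX1P33T libraries. Per the submitters' processing notes, fastp 0.23.1, HISAT2 2.0.5, featureCounts 1.5.0-p3 and DESeq2 1.20.0 were used with genome build GRCm39. The methods name both strand-specific and non-strand-specific library protocols, so reads of a gene and of an antisense partner may not be separated. The authors deposited FPKM per gene. The low values step in whole reads, which gave each PDX1P33T library's reads, each gene's length and a scaled library size that is not a whole number of reads.

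The deposited wild-type columns are not aligned with the gene IDs for most rows. A wild-type row was accepted where its reads equal those the study lists for the gene (1712 genes, from a shortened list) or where it alone had the gene's length, with at least 100 reads, group means within 4-fold and no other row of that length within 16-fold. Of the rows found by length, 403 of 403 that could be checked were right. In total 4764 genes were placed, of which 4725 were tested. No count test was run, since FPKM are not counts. limma 3.58.1 (R 4.3.3, trend and robust) was fitted to log2(FPKM + 0.1) over all 11 libraries, adjusted by Benjamini-Hochberg over 19329 gene IDs, and tested on simulated data. Fold changes are on the log2(FPKM + 0.1) scale. Single members were compared by an exact two-sided permutation test over 462 splits. Nothing in the labels says that libraries came from separate animals beyond their names, so p-values measure the spread between these libraries.

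Symbols, biotypes, GC content, transcript lengths and overlaps came from GENCODE vM21 (18789 of 19329 IDs matched), and promoters from RefSeq on GRCm38.p6, with no coordinates carried between builds. 112 rows named as ribosomal protein pseudogenes were left out, 4 of them annotated as protein-coding. The members, gene lists and tests were chosen with earlier results of these data known. Members were named where they were called, had the 5 highest or lowest mean, deviation in replicate 2 or coefficient of variation, had a listed role or paralog, or had one of the 3 largest fold changes. The results of a few genes are not reported here. Members named for sharing no sequence, for their ratio in replicate 2 or for not being highest there, Rps7, Rps24 and the genotype values of Rps27l, Rpl22l1 and Rpl29 were added after their values were seen. Alternatives were other pseudocounts, scalings, filters, matching limits, replicate blocks and libraries left out.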

Additional observations from a re-analysis of the deposited data

Results flagged for a closer look

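PDX1P33T replicate 2 lay apart from the other 4 PDX1P33T libraries by Dixon's 95% criterion in the summed FPKM of the small subunit members, 13034 against 7753 to 9105. The sums of the large subunit members and of all members did not pass the criterion. Of 45 named members, 16 passed it, each with the high value in that library and none with another library or in the wild-type group. Chance flags about 1 in 20 groups, and 9.43% of all protein-coding genes were apart in this way in replicate 2. Some of these members, Rpl22l1, Rpl35a and Rps27l among them, were named for a high value in that library or a large spread, so their count is no measure of how common the pattern is. Their FPKM in replicate 2 were 1625 for Rps3a1, 769.8 for Rps6, 661 for Rpl10, 505 for Rpl26, 479 for Rps14, 365 for Rpl7, 359 for Rpl3, 337 for Rps27rt, 330.3 for Rpl5, 263 for Rps3, 182 for Rps27l, 95.0 for Rpl35a, 81.0 for Rpl22, 63.0 for Rpl22l1, 22.1 for Rpl7l1 and 15.6 for Rpl13a. These genes share 1 library, so the flags are not independent of each other. The summed acinar markers in that library were 76.9 FPKM, against 3.96 to 11.7 FPKM in the other 4, and their part in the members' levels was not tested.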

How the results depend on the processing

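The count of members called between genotypes was 0 in both directions by limma under every alternative that was fitted, and at an unadjusted p under 0.05 it ran from 0 to 2 higher and from 0 to 6 lower. The members' median log2 fold change turned from 0.087 to -0.065 with libraries divided by their sum over all rows, a sum that for wild-type covers only the values held in the table. With libraries left out it ran from -0.053 to 0.16, the latter without wild-type replicate 3, and PDX1P33T replicate 2 alone turned its sign. Replicate numbers are shared between the groups, and the correlation of same-numbered libraries ran from -0.55 to 0.073. Differently numbered libraries were not set beside them, so whether the numbers stand for a pairing was not tested. With a replicate block by titles the median was 0.066 and by library names 0.16, and neither block called a member. The looser matching limit, chosen after seeing the data, placed 47 members and called none, with a median of 0.084. Of the named members, Rpl21, Rpl29, Rpl7a, Rps27rt, Rps27l and Rpl22l1 were followed singly. They kept their direction with a pseudocount of 1, the other scalings, the block by titles and each library left out. The block by library names and the matching limits were not followed for them. The other members were followed only by count, and without PDX1P33T replicate 2 the members above 0 went from 18 to 9. In PDX1P33T replicate 2 the members' median deviation stayed above 0 under all alternatives, from 0.24 to 0.52, with 55 to 74 members highest there. The ratio of summed FPKM went from 1.47 to 1.18 with libraries divided by their sum and to 1.24 with the islet hormone genes left out of that sum, and ran from 1.43 to 1.51 with another library left out. The correction for GC content and length and the restriction to members that share at most 50% of their sequence were also chosen after seeing the data. Dividing by transcript length moved the ratio of Rplp1 to Rplp2 from 11.4 to 2.47. Depth limits Rps10 and Rpl24 most, with at most 18 reads, and Rpl36al had 42 to 80 reads. In addition, 36 members had no wild-type value even under the looser matching.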

Other observations

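The rows named as ribosomal protein pseudogenes went with the members. Of 112 such rows, 103 had values in all PDX1P33T libraries, with a summed FPKM of 3003, 4339, 2801, 2831 and 2726 in replicates 1 to 5 and a median log2 deviation of 0.43 in replicate 2. 66 of 103 were highest in that library. Much of their sequence is that of their parent genes, and reads of the parents were not separated from reads of the copies.

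The transcripts encoded in the mitochondrial genome, which are translated by the mitochondrial ribosome, had their highest median in the same library of each group as the members. The 13 protein-coding transcripts had median deviations of 0.16, 0.47, -0.41, 0.11 and -0.41 in PDX1P33T replicates 1 to 5. Over the 11 with a wild-type row, the medians relative to the wild-type mean were -1.43, 0.50, 1.49, 0.040, -0.073 and -0.40 in wild-type replicates 1 to 6. Wild-type replicate 3 was the highest and wild-type replicate 1 the lowest of the wild-type libraries, as for the ribosomal protein genes. In PDX1P33T replicates 1 to 5 the medians relative to the wild-type mean were -0.87, -0.44, -1.46, -0.82 and -1.38, and the median log2 fold change was -1.03, with none called by limma and 7 of 11 lower at an unadjusted p under 0.05. For the ribosomal protein genes that median was 0.087, with a sign that was not stable. The rows of 8 of the 11 were found by listed reads, those 7 among them, so they entered through the stretch of the list that is rich in genes that differ, and no difference between the gene groups was tested. Eef2 and Eef1a1, partners in elongation, went apart in PDX1P33T replicate 2, with log2 deviations of -0.31 and 0.45.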
